A study of Rattus norvegicus with 93 samples.

Results

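The enzymes and chaperones that shape collagen inside and just outside the cell were followed through the healing of rat skull defects, beside the timing of Col1a1, the gene of the main chain of type I collagen. The 10 genes were chosen by name, with earlier results of these data known. They include the lysyl hydroxylases Plod1, Plod2 and Plod3, the prolyl 4-hydroxylase subunits P4hb and P4ha3, and the prolyl 3-hydroxylase partner Crtap. The others are the chaperones Serpinh1, Fkbp10 and Fkbp11, and the propeptide-removal enhancer Pcolce. All 10 were on the array, among 15975 named genes.

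Circular holes of 8 mm, which the series calls critical-size, or of 4 mm, called non-critical, were trephined in the calvaria of male rats aged 12 weeks. The dura mater was kept, no treatment was applied, and the healing plug of each defect was collected separately. The 8 mm groups held 5, 11, 12, 5, 6, 6 and 6 arrays at days 1, 3, 5, 7, 10, 14 and 21, with 3, 8, 11, 5, 4, 5 and 6 arrays for 4 mm. Later days were set against day 1, since uninjured calvaria is not analysed here. The p-values measure the spread between these arrays.

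Procollagen chains are hydroxylated on prolines and lysines in the endoplasmic reticulum (ER) as they are made. Proline hydroxylation keeps the helix stable at body temperature, and hydroxylysine is the site of sugar attachment and the starting point of the cross-links that stiffen bone collagen. Chaperones hold the chains until the helix has formed and escort it towards the Golgi, and after secretion proteases cut off the propeptides so that fibrils can assemble. Inherited loss of several of these proteins in humans causes brittle bone disease.

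Each value below is the log2 of the deposited ratio of an array, for most probes the ratio to that probe's median over all arrays. A level of 0 is therefore a gene's own typical level, and levels of different genes cannot be compared. The deposited ratio never went below 0.01, a floor at -6.64 on this scale. Plod2 stood at the floor on 7 arrays, Fkbp10 and P4ha3 on 1 each, and the other members on 0. The level of an array is its median over the probes that no array had at the floor, and on 7 arrays it was under -0.7. They included replicate 11 of 8 mm day 1 and replicate 13 of 4 mm day 1, 2 of the 8 arrays on which every comparison with day 1 rests. The lowest level was -2.69, on replicate 18 of 8 mm day 3. A score of 8 brain genes, their mean log2 level, was above 2 on 8 arrays, of which 2 were of 8 mm day 7 and 1 each of 8 mm days 5 and 14, with 1 of 4 mm day 14 and 3 of 4 mm day 21. Calls of members that ended when either set of arrays was left out are given with and without it. In bulk tissue, fewer cells of a type and less RNA per cell cannot be told apart.

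The promoters of a chaperone, a lysyl hydroxylase and a prolyl hydroxylase subunit are shown because between them they hold matches to all 4 short motifs searched, each known as a binding sequence of transcription factors. Capitals mark matches, on either strand, to CCAAT (the CCAAT box), ACGTG (the core shared by hypoxia and unfolded-protein response elements), GGGCGG (the GC box) and TTCNNGAA (part of the heat shock element). The sequences are RefSeq's for the GRCr8 assembly, 250 bases up to the start site, read 5′ to 3′ on the gene's strand: Serpinh1 at chr1:163062977-163063226 (minus strand), Plod2 at chr8:101964068-101964317 (plus strand) and P4hb at chr10:106346912-106347161 (minus strand).
Serpinh1: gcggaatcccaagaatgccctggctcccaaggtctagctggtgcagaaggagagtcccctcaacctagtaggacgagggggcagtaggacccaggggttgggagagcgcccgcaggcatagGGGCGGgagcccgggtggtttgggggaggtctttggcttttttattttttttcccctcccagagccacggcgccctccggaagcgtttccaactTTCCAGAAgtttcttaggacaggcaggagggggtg
Plod2: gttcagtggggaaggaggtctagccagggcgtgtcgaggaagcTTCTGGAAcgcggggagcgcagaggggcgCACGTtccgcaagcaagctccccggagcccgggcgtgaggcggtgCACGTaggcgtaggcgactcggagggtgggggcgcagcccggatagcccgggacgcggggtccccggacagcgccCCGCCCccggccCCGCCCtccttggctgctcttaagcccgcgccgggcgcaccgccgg
P4hb: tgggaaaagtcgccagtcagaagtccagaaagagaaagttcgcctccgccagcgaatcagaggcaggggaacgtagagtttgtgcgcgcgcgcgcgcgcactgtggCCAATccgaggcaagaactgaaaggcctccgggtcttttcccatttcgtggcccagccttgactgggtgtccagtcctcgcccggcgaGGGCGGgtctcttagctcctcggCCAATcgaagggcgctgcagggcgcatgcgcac
The table held promoters of 9 members. Fkbp10 and Col1a1 were not in it. GGGCGG was present in 9 of 9 member promoters, against 30.5% of 33469 promoters of the same length. CCAAT was present in 1 of 9 (P4hb), against 34.0%, and ACGTG in 1 of 9 (Plod2), against 16.6%. TTCNNGAA was present in 2 of 9 (Serpinh1 and Plod2), against 7.48%. The motifs searched do not overlap in the 3 sequences shown, and a match describes letters in a window, not binding.

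The main pattern over time was an early high level followed by a decline, while Col1a1 climbed to its highest level late. At day 3, 9 of 10 members were higher than at day 1, against 5.97% of all genes called higher. At day 5, 9 of 10 members were higher, against 17.3% of all genes, and the members' median difference was 1.65 on the log2 scale where that of all genes was 0.34. The count of members higher was 5 at day 7 (16.6% of all genes), 4 at day 10 (10.4%), 2 at day 14 (12.6%) and 3 at day 21 (13.4%). Without replicate 17 of 4 mm day 14 the day 14 count was 4. The members called were higher in all of these comparisons. Col1a1, by its most variable probe, was higher at each of the 6 later days, by 1.92, 1.76, 2.09, 3.07, 2.89 and 2.79 at days 3, 5, 7, 10, 14 and 21. Its second probe was no higher at days 3 and 5 than at day 1. Its day 3 means were -0.64 in 8 mm and 0.07 in 4 mm defects, against -0.46 and 0.09 at day 1. All 6 comparisons share the day 1 arrays and so are not independent.

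**Figure D1:**
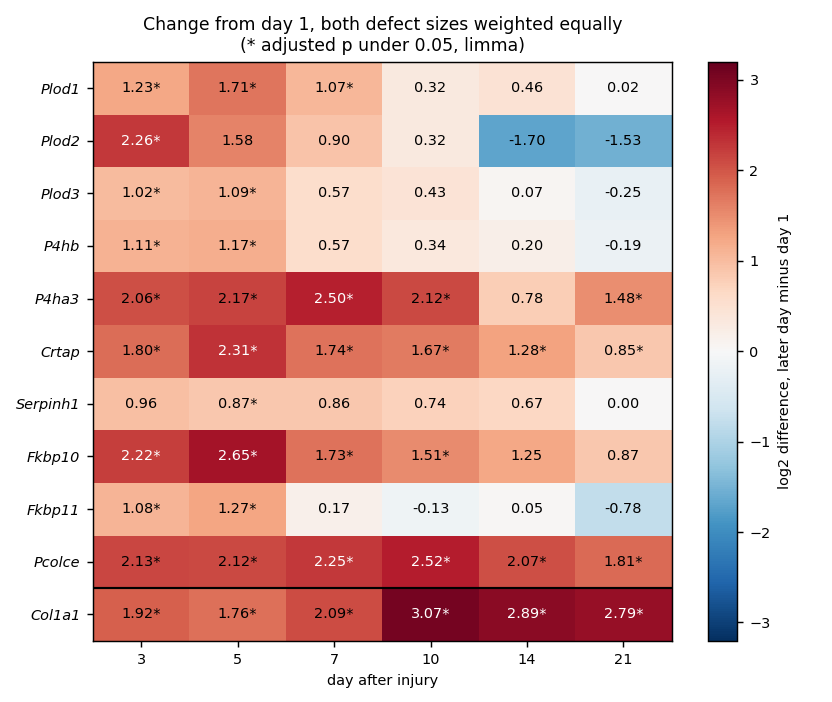
Log2 difference of each later day (columns, days after injury) from day 1 for the 10 members and Col1a1 (rows), with both defect sizes weighted equally; an asterisk marks an adjusted p under 0.05 from limma. Of the 10 member rows, 9 carry an asterisk at days 3 and 5 and 2 at day 14, while the Col1a1 row carries one at every day. The Col1a1 row is by its most variable probe.

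The day 1 arrays decide part of these counts. Without replicate 13 of 4 mm day 1 or without replicate 11 of 8 mm day 1, 4 members instead of 9 were called higher at day 3. The 4 were P4ha3, Crtap, Fkbp10 and Pcolce, and the calls of Plod1, Plod2, Plod3, P4hb and Fkbp11 were lost. At day 5 the count stayed between 8 and 9 whichever array of a small group was left out. Scores of cell types also had other means at day 5 than at day 1, given here for neutrophil, muscle and fibroblast genes. Neutrophil genes (7 of 8 measured) had a mean score of -1.80 at day 5 and 2.62 at day 1 in 8 mm defects, and of -1.94 at day 5 and 1.72 at day 1 in 4 mm defects. Skeletal muscle genes (9 of 9 measured) had a mean score of 1.68 at day 5 and 3.13 at day 1 in 8 mm defects, and of 1.71 at day 5 and 4.39 at day 1 in 4 mm defects. The muscle scores overlapped widely. In 8 mm defects they ran from -1.30 to 6.28 at day 5 and from -1.72 to 4.86 at day 1. In 4 mm defects they ran from -2.17 to 6.21 at day 5 and from 0.86 to 6.75 at day 1. Fibroblast genes (8 of 8 measured) scored 0.14 at day 5 and -2.29 at day 1 in 8 mm defects, and 0.01 at day 5 and -2.29 at day 1 in 4 mm defects. No gene of any marker list stood at the floor on all arrays of a group. The part of these cell types in the rise was not tested.

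Among the lysyl hydroxylases, Plod1, which acts on lysines of the helical part of the chain, rose at day 5. Over days 1, 3, 5, 7, 10, 14 and 21 its mean was -0.97, 0.04, 0.68, -0.29, -0.43, -0.32 and -0.79 in 8 mm defects and -1.11, 0.34, 0.66, 0.34, -1.01, -0.84 and -1.25 in 4 mm defects. The lowest, median and highest arrays stood at -0.14, 0.65 and 1.47 at day 5, against -2.65, -0.68 and -0.31 at day 1. No day 5 array was as low as the highest day 1 array. The difference was 1.71 ± 0.33 (SE, n = 23 and 8 arrays, adjusted p = 2.74e-05), a 3.27-fold increase. At day 7 it was 1.07 ± 0.37 higher than at day 1 (adjusted p = 0.0306), a call that ended without either low-level day 1 array (adjusted p = 0.0921 and 0.0993), as it did without replicate 18 of 4 mm day 1 (adjusted p = 0.0688), without replicate 15 of 8 mm day 7 (adjusted p = 0.0658) and with the mean of both probes (adjusted p = 0.182). Its second probe correlated with the first at r = 0.693 over the 93 arrays and also had its highest 8 mm mean at day 5 (0.57), but in 4 mm defects at day 7 (0.58).

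Plod2 hydroxylates lysines in the telopeptides, the short ends from which cross-links grow. Its highest mean was at day 3 in both sizes, 0.69 ± 0.82 in 8 mm defects (SD, n = 11) and 0.93 ± 0.34 in 4 mm defects (SD, n = 8). At day 14 its mean was -1.19 in 8 mm defects and -5.11 in 4 mm defects, where 3 of 5 arrays stood at the floor, so the size of the late decline depends on where the floor lies. The day 3 rise over day 1 was 2.26 ± 0.73 (adjusted p = 0.042) and was no longer called without the 7 arrays of low level (1.46, adjusted p = 0.396), with each array centred on its median (adjusted p = 0.0674) or with the mean of both probes (adjusted p = 0.0595). It also ended without replicate 13 or 18 of 4 mm day 1 or 11 or 16 of 8 mm day 1 (adjusted p from 0.06 to 0.302). At day 5 its difference from day 1 was 1.58 ± 0.71 (adjusted p = 0.113). The other Plod2 probe correlated with the used one at only r = 0.401, and in 4 mm defects it had its highest mean at day 7 (1.63) and 0.34 at day 3. The day of the Plod2 maximum thus differs between its probes.

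Plod3, a lysyl hydroxylase that also attaches the sugars of hydroxylysine, had means of -0.55, 0.19, 0.48, -0.29, -0.30, -0.29 and -0.67 in 8 mm defects over the 7 days. In 4 mm defects they were -0.65, 0.65, 0.50, 0.22, -0.04, -0.78 and -1.03. The 8 mm mean at day 3 included an array at -3.19, and the 8 mm medians were 0.51 at day 3 and 0.32 at day 5. Plod3 was higher at day 3 by 1.02 ± 0.30 (adjusted p = 0.0221) and at day 5 by 1.09 ± 0.29 (adjusted p = 0.00374), and was not called at any later day. The day 3 call was lost without replicate 13 of 4 mm day 1 (adjusted p = 0.137) or replicate 11 of 8 mm day 1 (adjusted p = 0.105).

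**Figure D2:**
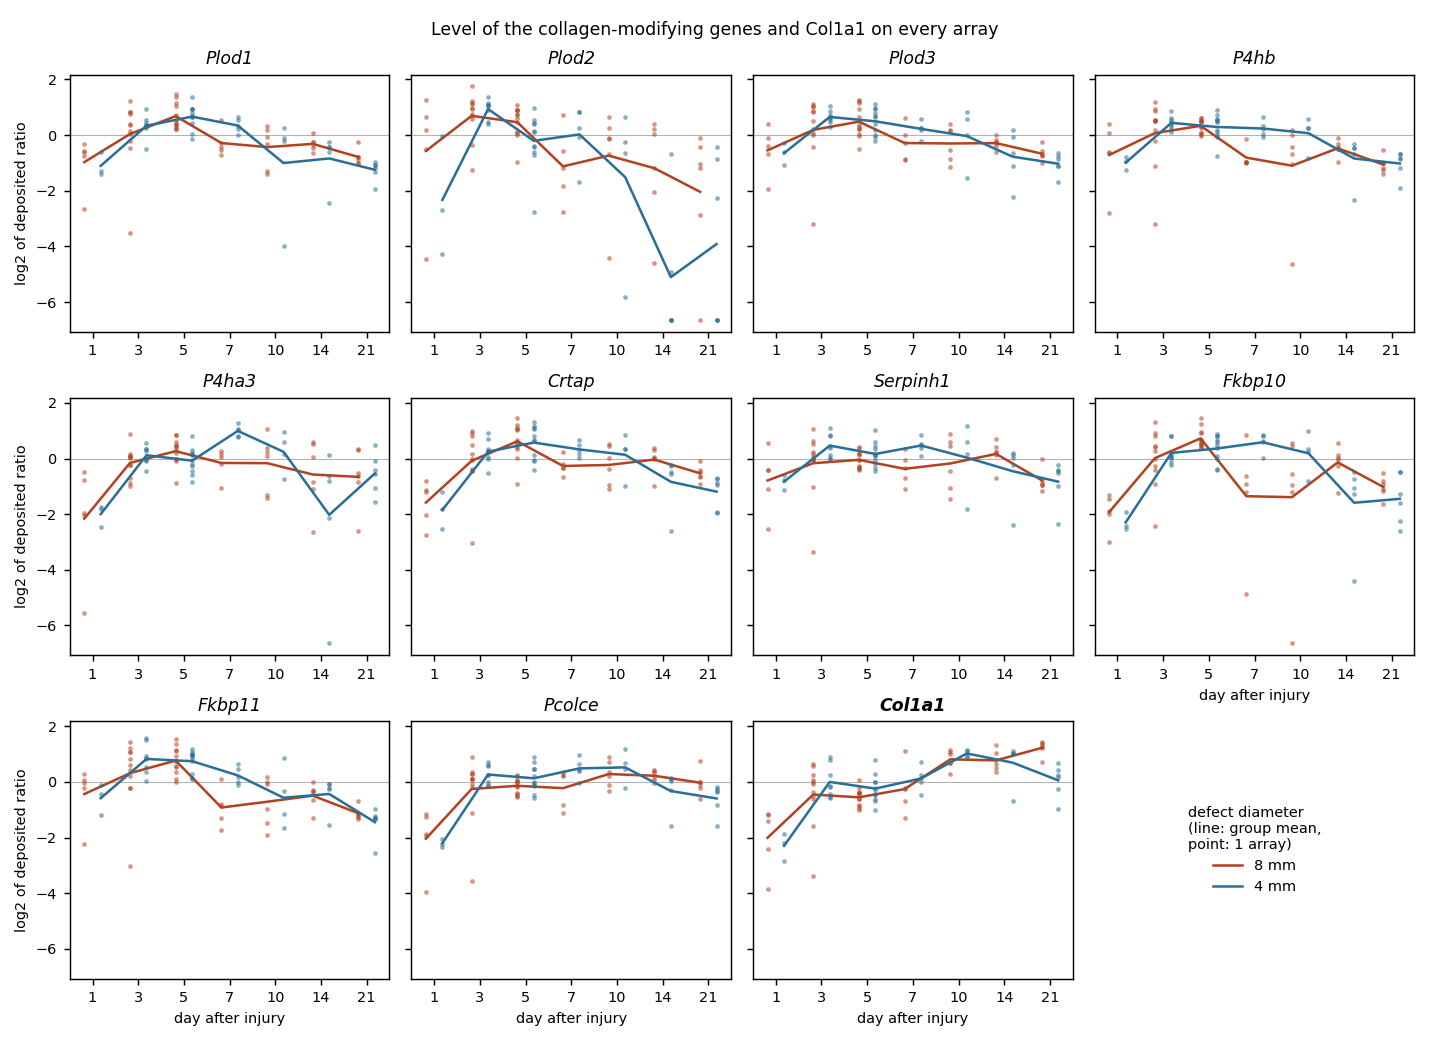
Log2 of the deposited ratio (vertical axis) of each member and Col1a1 on every array (points) with group means (lines), at evenly spaced marks for days 1 to 21 after injury (horizontal axis), 8 mm in red left of 4 mm in blue. Most member lines crest at days 3 to 7 and then sink, and the Col1a1 lines are highest at day 10 or later; Plod2 points at the bottom of the panel lie on the floor of -6.64.

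Prolyl 4-hydroxylase is built from catalytic alpha subunits and the beta subunit P4hb, which is also the ER's protein disulfide isomerase. P4hb had its highest mean at day 5 in 8 mm defects (0.33 ± 0.24, SD, n = 12) and at day 3 in 4 mm defects (0.44 ± 0.24, SD, n = 8). The 8 mm day 3 mean was 0.07 and included an array at -3.19. By median, 8 mm defects stood higher at day 3 (0.51) than at day 5 (0.39). P4hb was 1.17 ± 0.33 higher at day 5 than at day 1 (adjusted p = 0.00643) and its day 7 difference was 0.57 ± 0.38 (adjusted p = 0.306).

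The alpha subunit P4ha3 had its highest mean at day 5 in 8 mm defects (0.27 ± 0.48, SD, n = 12) and at day 7 in 4 mm defects (0.99 ± 0.20, SD, n = 5). Its values at day 7 were -1.07, -0.20, 0.06, 0.16 and 0.27 in 8 mm defects and 0.79, 0.81, 1.03, 1.08 and 1.26 in 4 mm defects. At day 1 they were -5.56, -2.03, -1.96, -0.77 and -0.49 in 8 mm defects and -2.44, -1.82 and -1.73 in 4 mm defects. Only the lowest day 7 array overlapped with the day 1 arrays. P4ha3 was called higher at days 3, 5, 7, 10 and 21, by 2.06, 2.17, 2.50, 2.12 and 1.48, and not at day 14 (0.78 ± 0.47, adjusted p = 0.248). The day 21 call was lost without replicate 12 of 8 mm day 1, the array at -5.56 (1.06, adjusted p = 0.0624).

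Crtap, which works with a prolyl 3-hydroxylase and a cyclophilin in a complex on the nascent chain, was called higher at each of the 6 later days. The lowest, median and highest values were -0.93, 0.65 and 1.46 at day 5, against -2.76, -1.52 and -0.80 at day 1. All 23 day 5 arrays lay above the day 1 mean, although the lowest of them fell within the day 1 range. The difference was 2.31 ± 0.30 (SE, adjusted p = 1.26e-09) at day 5, a 4.97-fold increase. By day 21 it was 0.85 ± 0.33 (adjusted p = 0.0428), a call that ended without either low-level day 1 array (adjusted p = 0.165 and 0.104), without all 7 arrays of low level (adjusted p = 0.166) and without the arrays of high brain score (adjusted p = 0.068). It also ended when replicate 18 of the 4 mm (adjusted p = 0.0726) or replicate 16 of the 8 mm day 1 arrays (adjusted p = 0.0737) was left out, and with the mean of both probes (adjusted p = 0.193). Its second probe followed the first (r = 0.858).

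Serpinh1, the ER chaperone that binds the folded procollagen helix, had the lowest F statistic over days of the 10 members in both sizes. Its means were -0.79, -0.17, -0.05, -0.37, -0.18, 0.17 and -0.78 in 8 mm defects and -0.83, 0.47, 0.16, 0.47, 0.03, -0.45 and -0.83 in 4 mm defects. In 8 mm defects the F test over the 7 days did not pass (adjusted p = 0.319), and in 4 mm defects it did (adjusted p = 0.0373). The 4 mm call ended without the arrays of high brain score (adjusted p = 0.213), after quantile normalization (adjusted p = 0.0943), without replicate 13 of 4 mm day 1 (adjusted p = 0.0662) and without replicate 13 of 4 mm day 7 (adjusted p = 0.0515). The only day at which it was called higher than day 1 was day 5 (0.87 ± 0.32, adjusted p = 0.0437). That call was lost when each array was centred on its median (0.46, adjusted p = 0.211) and without the 7 arrays of low level (0.58, adjusted p = 0.141). It was also lost after quantile normalization (adjusted p = 0.259) and without any 1 of 5 day 1 arrays, replicates 13, 17 and 18 of 4 mm and 11 and 16 of 8 mm (adjusted p from 0.064 to 0.188).

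The FK506-binding proteins of the ER are prolyl isomerases, and Fkbp10 among them is needed for normal lysyl hydroxylation of telopeptides. Fkbp10 had the largest day 5 difference of the 10 members. Its lowest, median and highest values were -0.42, 0.58 and 1.44 at day 5, against -2.98, -1.94 and -1.32 at day 1. The ranges did not overlap, and the difference was 2.65 ± 0.45 (SE, adjusted p = 2.48e-06), a 6.29-fold increase. It was also called higher at day 7 (1.73 ± 0.52, adjusted p = 0.0098) and day 10 (1.51 ± 0.52, adjusted p = 0.0335), while its day 21 difference was 0.87 ± 0.50 (adjusted p = 0.192). The day 10 call ended without either low-level day 1 array (adjusted p = 0.0806 and 0.0643), without replicate 18 of 4 mm day 1 (adjusted p = 0.0682) and without replicate 11, 12 or 13 of 4 mm day 10 (adjusted p from 0.0507 to 0.0733).

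The group means of Fkbp10 were -1.92, 0.01, 0.73, -1.35, -1.39, -0.14 and -1.02 in 8 mm defects and -2.30, 0.20, 0.36, 0.59, 0.19, -1.59 and -1.45 in 4 mm defects. In 8 mm defects day 7 included an array at -4.87 and day 10 an array at the floor. The second Fkbp10 probe had means of -0.41 and -0.36 in those groups. Both probes were lowest at day 1 in 8 mm defects, and their correlation was 0.84.

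Fkbp11, a membrane-anchored relative found in many secretory cells, was called higher than at day 1 at days 3 and 5 alone. Its mean was 0.77 ± 0.48 at day 5 in 8 mm defects (SD, n = 12) and 0.83 ± 0.53 at day 3 in 4 mm defects (SD, n = 8). By day 21 it was -1.13 ± 0.23 in 8 mm defects and -1.44 ± 0.57 in 4 mm defects (SD, n = 6 each). It was higher than at day 1 by 1.08 ± 0.31 at day 3 (adjusted p = 0.019) and by 1.27 ± 0.30 at day 5 (adjusted p = 0.00102). At day 7 its difference was 0.17 ± 0.35 (adjusted p = 0.787), and at day 21 it was -0.78 ± 0.34 (adjusted p = 0.078), with 12 of 12 arrays below the day 1 mean. A plasma cell score (6 of 7 markers measured) averaged -1.03 at day 21 and -0.15 at day 5 in 8 mm defects, and -2.04 at day 21 and -0.36 at day 5 in 4 mm defects. It was lower still at days 7 and 10 in 8 mm defects (-2.26 and -2.10). Its genes did not move as one, since Cd79b averaged 2.80 at day 21 in 8 mm defects. Its part in the Fkbp11 decline was not tested.

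Pcolce acts outside the cell, where it speeds the removal of the C-propeptide by the procollagen C-proteinase. Its highest mean was at day 10 in both sizes. Values at day 10 were -0.34, 0.28 and 0.88 (lowest, median and highest of 6) in 8 mm defects and -0.22, 0.46, 0.70 and 1.17 in 4 mm defects. At day 1 they were -3.95, -1.95, -1.88, -1.26 and -1.15 in 8 mm defects and -2.33, -2.23 and -2.04 in 4 mm defects. The day 10 and day 1 arrays did not overlap. Pcolce was called higher at all 6 later days, by 2.13, 2.12, 2.25, 2.52, 2.07 and 1.81, and the day 10 difference had an adjusted p of 1.83e-09.

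Col1a1 itself had means of -2.005, -0.45, -0.55, -0.25, 0.82, 0.78 and 1.23 over the 7 days in 8 mm defects, and of -2.29, 0.0024, -0.24, 0.13, 1.03, 0.70 and 0.06 in 4 mm defects. Its highest mean was thus at day 21 in 8 mm defects and at day 10 in 4 mm defects. Of the members, 8 of 10 had their highest mean at day 3 or 5 in 8 mm defects and 6 of 10 in 4 mm defects. With each array centred on its median these counts were 8 and 7, and after quantile normalization 7 and 8. The share of all genes with their highest mean at day 3 or 5 was not counted, so these counts are a description only. The exceptions in 8 mm defects were Serpinh1 (day 14) and Pcolce (day 10). For 4 mm they were P4ha3, Serpinh1 and Fkbp10 (day 7) and Pcolce (day 10). Neighbouring days at the crest often differed by less than 1 SD, as for Serpinh1 in 4 mm defects, with 0.47 at both day 3 and day 7. Col1a1 has 3 probes, and all 3 had their highest means between days 10 and 21. They disagree elsewhere. The second probe was no higher at day 5 than at day 1, with means of -0.98 at day 5 and -0.46 at day 1 in 8 mm defects and of -0.58 and 0.09 in 4 mm defects. The third had means of 0.12, 0.09, 0.34, 0.87, -0.03 and -0.76 at days 3, 5, 7, 10, 14 and 21 in 4 mm defects, where its means at days 14 and 21 lay below those of days 3 and 5.

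A comparison of the late days 10, 14 and 21 with the early days 3 and 5 was added after the data were seen. In 8 mm defects 7 of 10 members fell, against 27.6% of all genes called lower, and the members' median difference was -0.81 where that of all genes was -0.45. In 4 mm defects 8 of 10 fell, against 22.5% of all genes, with medians of -1.11 for the members and -0.43 for all genes. Col1a1, by its most variable probe, rose in both, by 1.44 ± 0.21 in 8 mm defects (SE, 18 late and 23 early arrays, adjusted p = 7.53e-08) and by 0.71 ± 0.24 in 4 mm defects (15 late and 19 early arrays, adjusted p = 0.0164). It was above the early mean on 18 of 18 late arrays of 8 mm defects and on 12 of 15 of 4 mm defects. The 4 mm rise depends on the probe. By the third probe the 4 mm means were 0.12 and 0.09 early and 0.87, -0.03 and -0.76 late.

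Fkbp11 showed the decline plainly in both sizes. Its lowest, median and highest late values were -1.90, -0.84 and 0.19 in 8 mm defects, against -3.01, 0.75 and 1.55 early. In 4 mm defects they were -2.57, -1.17 and 0.85 late, against 0.02, 0.86 and 1.58 early. The late and early ranges overlapped, but 18 of 18 late arrays of 8 mm defects and 14 of 15 of 4 mm defects lay below the early mean. The differences were -1.32 ± 0.23 (adjusted p = 2.88e-06) in 8 mm defects and -1.60 ± 0.25 (adjusted p = 9.19e-07) in 4 mm defects.

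The lysyl hydroxylases all fell in both sizes. Plod1 fell by 0.87 in 8 mm defects and by 1.53 in 4 mm defects, and Plod3 fell by 0.75 in 8 mm defects and fell by 1.19 in 4 mm defects. Plod2, by the probe used, fell by 1.90 in 8 mm defects and fell by 3.88 in 4 mm defects. Its second probe had 8 mm means of -0.14 and 0.14 at days 3 and 5 and of -0.19, -0.245 and -1.755 at days 10, 14 and 21. In 4 mm defects these were 0.34 and -0.245 early and 0.73, -0.67 and -1.59 late, so the day 10 mean lay above both early means. When values under a ratio of 0.25 were raised to it, Plod2 fell by 1.32 in 8 mm defects and fell by 1.68 in 4 mm defects. P4hb differed by -1.08 in 8 mm and -0.96 in 4 mm defects, and Fkbp10 by -1.22 and -1.23, all called. Without the 8 arrays of high brain score, the Fkbp10 difference in 4 mm defects was -0.997 (adjusted p = 0.0537).

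Crtap fell by 0.54 in 8 mm defects (adjusted p = 0.0464) and by 1.04 in 4 mm defects (adjusted p = 0.000679). With each array centred on its median the 8 mm difference was -0.29 and no longer passed (adjusted p = 0.13). Serpinh1 had a difference of -0.16 ± 0.24 in 8 mm defects (adjusted p = 0.637) and fell by 0.73 in 4 mm defects (adjusted p = 0.0287). The Serpinh1 call in 4 mm defects ended without replicate 10 of day 10 (adjusted p = 0.126), without replicate 17 of day 14 (adjusted p = 0.0899) and without the arrays of high brain score (adjusted p = 0.203).

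P4ha3 and Pcolce passed in neither size. P4ha3 differed by -0.52 ± 0.31 in 8 mm defects and by -0.79 ± 0.35 in 4 mm defects, with adjusted p-values of 0.186 and 0.0755. Pcolce differed by 0.35 ± 0.21 and -0.33 ± 0.23, with adjusted p-values of 0.17 and 0.282. Whether the late against early difference itself differed between sizes was not tested separately. The interaction of size and day below takes all 7 days at once.

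**Figure D3:**
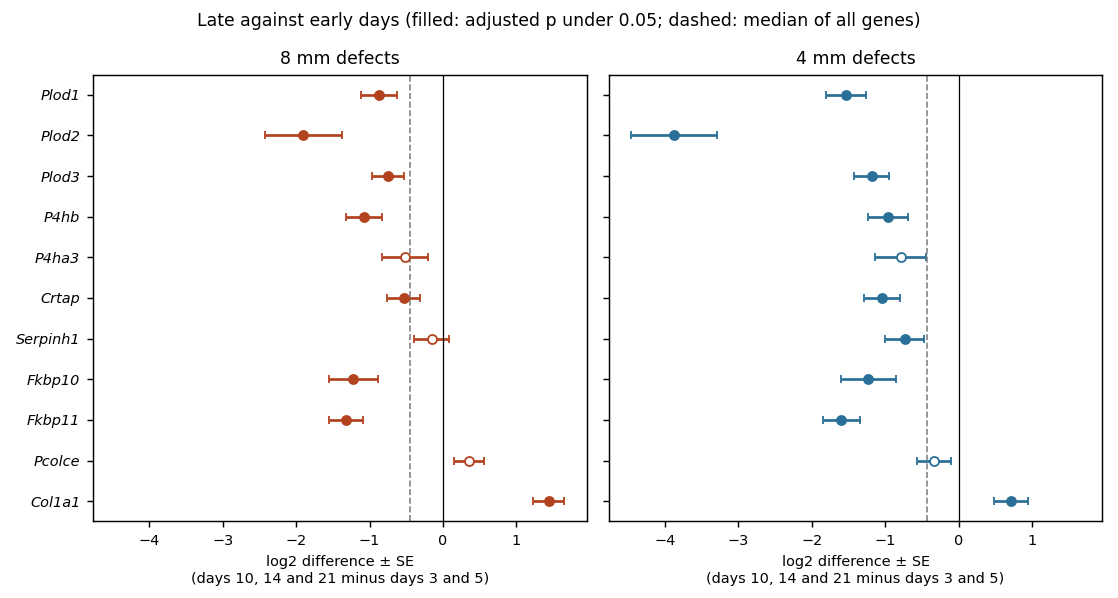
Log2 difference ± SE between days 10, 14 and 21 and days 3 and 5 (horizontal axis) for each gene (rows), 8 mm defects left and 4 mm defects right; filled points have an adjusted p under 0.05, and the dashed line is the median of all genes. Most members lie left of the dashed line and Col1a1, by its most variable probe, alone is a filled point right of 0.

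Set against Col1a1 on the same array, where any scaling of the array cancels, 10 of 10 members passed the F test over days, as did 86.1% of all genes. The ratio of each of the 10 members to Col1a1 was lower late than early in both sizes. The median difference of the log2 ratio was -2.25 in 8 mm defects, against -1.89 over all genes, and 72.7% of all genes were called lower there. In 4 mm defects it was -1.83 against -1.14, with 47.5% of all genes called lower. With shares that high among all genes, the count of 10 says little about the members, and the sizes are given as a description. Pcolce had the smallest such difference in both sizes, -1.09 ± 0.13 in 8 mm defects and -1.04 ± 0.14 in 4 mm defects. Plod2, by the probe used, had the largest, -3.34 ± 0.51 and -4.59 ± 0.56. Against the third Col1a1 probe, the 4 mm differences of P4ha3 (-0.71, adjusted p = 0.172) and Pcolce (-0.25, adjusted p = 0.132) no longer passed.

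Relative to day 1, the ratio to Col1a1 was lower for 4 of 10 members at day 3, against 56.4% of all genes, and for 2 of 10 at day 5, against 45.9%. The count was 5 of 10 at day 7 (56.2% of all genes), 9 of 10 at day 10 (81.3%), 10 of 10 at day 14 (79.3%) and 10 of 10 at day 21 (78%). At day 5 the members' median difference in this log2 ratio was -0.11, where that of all genes was -1.42. By day 21 both had moved far below day 1, at -2.78 for the members and -2.97 for all genes. These ratios depend on the Col1a1 probe. With the second probe, 10 of 10 members were higher relative to Col1a1 at days 3 and 5, with median differences of 1.61 and 2.24, and 4 of 10 at day 7. By day 21, 4 of 10 were then lower and 1 higher. With the third probe 7, 8, 9, 10, 10 and 10 of 10 members were lower at the 6 later days. Relative to day 1 the direction at days 3, 5 and 7 thus turns with the probe.

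Defect size was the other axis of the study. Over the 7 days, 0 of 10 members passed the F test of the interaction of size and day, against 0.538% of all genes, and 2 had an unadjusted p under 0.05. The difference between sizes averaged over the days passed for 0 of 10 members, against 0.413% of all genes, with 1 at an unadjusted p under 0.05. At days 1, 3 and 5 no member and no other gene was called (0% of all genes), and 0 members had an unadjusted p under 0.05. The members' median differences, 8 mm minus 4 mm, were 0.15, -0.35 and 0.03 at these days. The 8 mm arrays of day 3 include replicate 18, of the lowest level. By group medians, Plod1, P4hb and Fkbp10 were higher in 8 mm than in 4 mm defects at day 3, and the other members lower. The F test over days alone passed for 8 of 10 members in 8 mm defects (40.2% of all genes) and for 10 of 10 in 4 mm defects (33.5%). The exceptions in 8 mm defects were Serpinh1 and Plod2 (adjusted p = 0.0504). P4hb in 4 mm defects was not called without the arrays of high brain score (adjusted p = 0.0889). In 8 mm defects the Plod3 call ended without replicate 11 of day 1 (adjusted p = 0.0514) and the P4ha3 call without replicate 12 of day 1 (adjusted p = 0.153).

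At day 7 every member was lower in 8 mm than in 4 mm defects, but 0 of 10 passed the limma test, against 0.369% of all genes. An unadjusted p under 0.05 was reached by 3 members. The members' median difference was -0.94 where that of all genes was -0.40. P4hb stood at -1.01, -0.98, -0.97, -0.95 and -0.14 in 8 mm defects, against -0.07, 0.05, 0.21, 0.34 and 0.65 in 4 mm defects, and the groups did not overlap. Its difference was -1.05 ± 0.50 (adjusted p = 0.308). P4ha3, whose day 7 values are given above, also separated the sizes, by -1.15 ± 0.63 (adjusted p = 0.369). The share of all genes that separated the sizes at day 7 was not counted, so these separations are a description only. Fkbp10 differed most, by -1.94 ± 0.67 (adjusted p = 0.186), with an 8 mm array at -4.87.

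With array weights 6 members were called lower at day 7, and without the 7 arrays of low level 3 were. Many more genes were called under these settings, 11.8% of all genes lower with array weights and 6.89% lower without the low-level arrays. The arrays themselves differed here. Their mean level was -0.11 in 8 mm defects and 0.44 in 4 mm defects, and the brain score averaged 1.205 in 8 mm defects and -1.28 in 4 mm defects. Without the 8 arrays of high brain score the count was 0, as it already was with all arrays. The part of array level and brain score in the day 7 difference was not tested.

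At day 10, 0 of 10 members were called, against 0.263% of all genes, and 2 had an unadjusted p under 0.05. P4hb (-1.17 ± 0.51, adjusted p = 0.452) and Fkbp10 (-1.58 ± 0.69, adjusted p = 0.456) had the lowest differences, and both were lowest on replicate 11 of 8 mm day 10, an array of low level. At day 14, 9 of 10 members had higher means in 8 mm than in 4 mm defects, and the median difference of all genes was 0.14. Replicate 17 of 4 mm day 14 lay apart as the lowest array for several members. Group medians kept these directions, though those of P4hb were close, at -0.46 in 8 mm and -0.47 in 4 mm defects. The test called 1 of 10 members at day 14, against 1.63% of all genes. That member was Plod2, with a lowest, median and highest value of -4.59, -0.57 and 0.40 in 8 mm defects, against 3 arrays at the floor and others at -4.92 and -0.67 in 4 mm defects.

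The Plod2 difference at day 14 was 3.91 ± 1.02 (adjusted p = 0.0256). With values under a ratio of 0.25 raised to it, the difference was 0.98 (adjusted p = 0.519), and with the mean of both probes 2.17 (adjusted p = 0.0822). The second probe alone had close means at day 14, -0.245 in 8 mm and -0.67 in 4 mm defects. The difference by the probe used was also not called without replicate 15, 16, 17 or 20 of 4 mm day 14 (adjusted p between 0.0594 and 0.0681). At day 21, 0 of 10 members were called, against 2.4% of all genes, with 0 at an unadjusted p under 0.05. Col1a1 separated the sizes at day 21 without passing the test. Its lowest, median and highest values were 0.70, 1.30 and 1.42 in 8 mm defects, against -0.96, 0.23 and 0.68 in 4 mm defects, a difference of 1.17 ± 0.39 (adjusted p = 0.0893). On 3 of the 6 arrays of 4 mm day 21 the brain score was above 2, and its part in that difference was not tested.

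**Figure D4:**
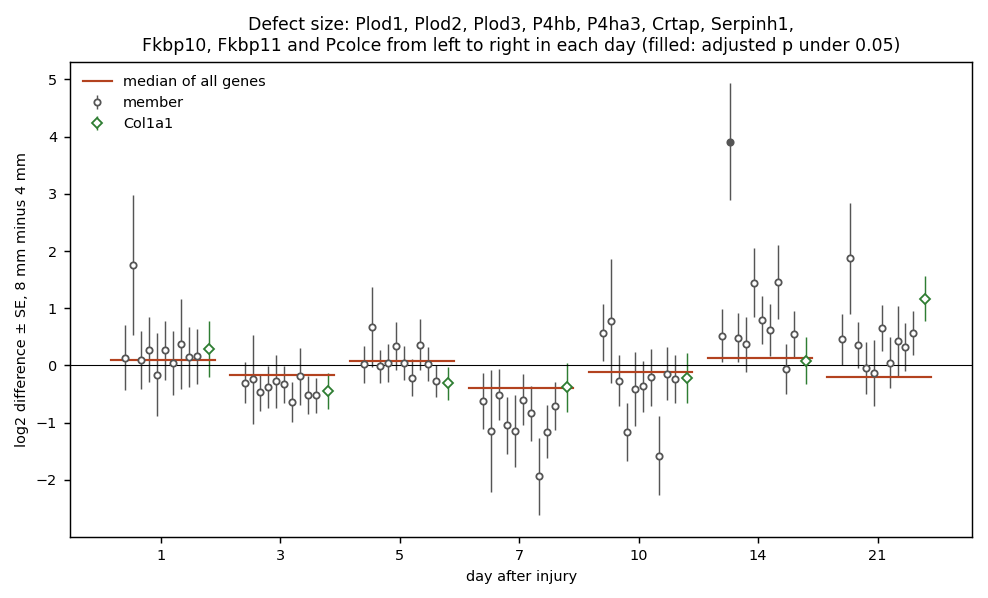
Log2 difference ± SE of 8 mm minus 4 mm defects (vertical axis) at each day after injury (horizontal axis) for the 10 members (circles) and Col1a1 (diamonds), with the median of all genes as a red line. All circles lie below 0 at days 3 and 7, and the filled circle at day 14 is Plod2. The 8 mm arrays of day 3 include the array of lowest level.

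The likeness between time courses was described over the 14 group means, which share arrays and scaling, as Pearson correlations without a test. Col1a1 was taken by its most variable probe, with day 1 means of -2.005 in 8 mm and -2.29 in 4 mm defects. Its second probe had day 1 means of -0.46 and 0.09, and correlations with the other Col1a1 probes were not computed. Pcolce was closest to Col1a1 (r = 0.85), followed by Crtap (0.51), P4ha3 (0.46), Fkbp10 (0.35) and Serpinh1 (0.34). Plod1, Plod3 and P4hb were near 0 (0.05, 0.02 and 0.01), and Plod2 and Fkbp11 were at -0.19 each. With the mean of the other 9 members, Plod3 had the highest correlation (0.95) and Pcolce the lowest (0.61).

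When only genes with no floor value were ranked, those most like Col1a1 were Bgn, which encodes the matrix proteoglycan biglycan (0.95), the microfibril gene Mfap5 (0.95), Ecrg4 (0.95), the matricellular Ccn3 (0.93) and Rasa4 (0.93). Those most like the mean of the members were Nt5dc2 (0.97), Dpp3 (0.97), Lpcat3 (0.97), Slc38a10 (0.97) and Zfp771 (0.96). The correlation of these genes with Col1a1 lay between 0.10 and 0.24.

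**Figure D5:**
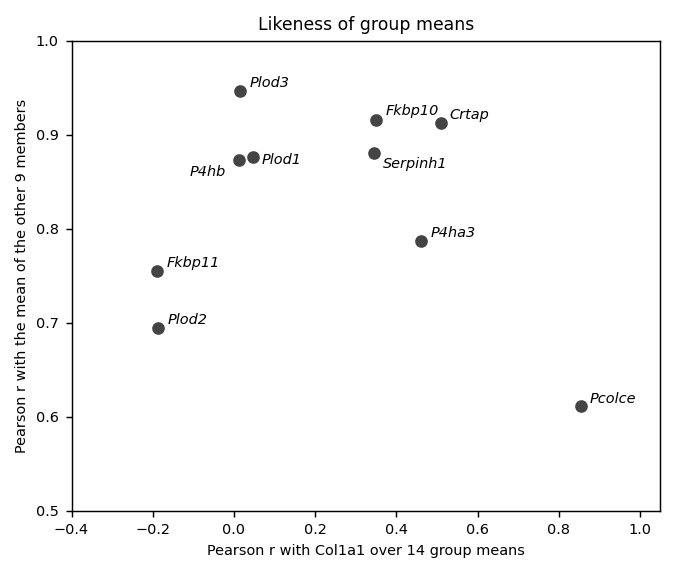
Pearson correlation of each member with Col1a1 (horizontal axis) and with the mean of the other 9 members (vertical axis), over 14 group means of day and defect size. Col1a1 is taken by its most variable probe. Pcolce lies alone at the right with the lowest value on the vertical axis, and Plod2 and Fkbp11 lie left of 0.

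Other genes of collagen processing were measured as well. Of 36 listed genes for further prolyl hydroxylases, glycosylation, ER export, propeptide proteases and cross-linking, 30 were measured. The number higher than at day 1 was 13, 20, 15, 15, 15 and 12 at days 3, 5, 7, 10, 14 and 21, and the number lower was 0, 0, 0, 2, 1 and 2. Of all genes, 5.97%, 17.3%, 16.6%, 10.4%, 12.6% and 13.4% were called higher and 0.469%, 1.69%, 4.84%, 6.15%, 8.41% and 12.8% were called lower at these days. The largest increases at day 5 were of the cross-linking oxidase Loxl1 (3.44 ± 0.32), the ER isomerase Fkbp7 (3.22 ± 0.34), the N-propeptide protease Adamts2 (3.21 ± 0.29) and the oxidase Loxl2 (3.10). Loxl1 and Adamts2 were still among the largest at day 21, by 3.47 and 2.71. The lysyl oxidase relative Loxl4 was lower at day 21 (-1.97 ± 0.72, adjusted p = 0.0339), with 4 arrays at the floor.

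Between late and early days, 5 of these 30 rose and 9 fell in 8 mm defects, and 2 rose and 7 fell in 4 mm defects, where 11% (8 mm) and 7.79% (4 mm) of all genes were called higher. The shares of all genes called lower, 27.6% in 8 mm and 22.5% in 4 mm defects, are close to those of the list, so the falls say nothing particular about it. Sparc, a collagen-binding matrix protein, rose by 1.502 in 8 mm defects and by 1.07 in 4 mm defects, as did Fkbp9, an ER isomerase, by 1.03 and 0.82. The genes that fell in 4 mm defects included P3h1 (-1.11 ± 0.26, adjusted p = 0.000616) and P3h4 (-1.09 ± 0.26, adjusted p = 0.000644), both of prolyl 3-hydroxylase complexes, and the alpha subunit P4ha2 (-0.89 ± 0.27, adjusted p = 0.00831).

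General ER folding genes serve all secreted proteins. Of 14 listed, 13 were measured, and the number higher than at day 1 was 0, 1, 2, 0, 0 and 0 over the 6 later days. The number lower was 0, 0, 2, 4, 2 and 6. Between 5.97% and 17.3% of all genes were called higher at these days, and between 0.469% and 12.8% lower. Pdia3, a disulfide isomerase for glycoproteins, was higher at day 5 (0.87 ± 0.29, adjusted p = 0.0249). At day 21 the largest decreases were of the chaperone Hyou1 (-2.42 ± 0.77, adjusted p = 0.0137, 6 arrays at the floor) and the disulfide oxidase Ero1a (-2.42 ± 0.43, adjusted p = 8.98e-06). At day 5 the list's median difference was 0.04, against 0.34 for all genes and 1.65 for the 10 members.

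The mean score of the osteoblast markers was highest at day 21 in 8 mm defects and at day 14 in 4 mm defects. Its genes did not move as one. Their means there ran from -1.58 to 6.21 (Bglap) in 8 mm defects and from -1.77 to 4.54 (Bglap) in 4 mm defects. Phex stood at the floor on 28 arrays and Sp7 on 17. Osteoblast genes (8 of 9 measured) averaged -2.17, -1.15, -0.57, -0.42, 0.91, 1.19 and 1.21 over the 7 days in 8 mm defects, and -2.98, -1.75, -0.49, -0.37, 0.02, 0.68 and -0.40 in 4 mm defects. The mean of the 10 members was -1.17, 0.07, 0.42, -0.58, -0.50, -0.31 and -0.87 in 8 mm defects and -1.48, 0.45, 0.31, 0.39, -0.19, -1.32 and -1.33 in 4 mm defects. Macrophage genes (8 of 8 measured) were highest at day 5 in 8 mm defects (-0.04) and at day 3 in 4 mm defects (0.12), and lowest at day 1 in 8 mm defects (-1.24) and day 21 in 4 mm defects (-1.48). Cartilage genes (6 of 7 measured) were highest at day 5 in both sizes, at 0.41 in 8 mm defects and -0.28 in 4 mm defects. The share of probe values at the floor averaged between 10.2% and 10.4% in groups of days 1, 3 and 5 and between 16.3% and 21.4% in groups of days 10, 14 and 21. The part of these cell types and of the floor in the members' course was not tested.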

How the data were processed

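Cy3-labelled RNA from 93 defects was measured on Agilent rat arrays with a single colour, per the labels' protocols. The authors deposited linear ratios. Of 41090 probes, 87.8% had a median of 1, and 13.4% of values stood at the lowest one, 0.01. How background was removed and arrays were scaled is not given in these sources, so signal over background cannot be given and the number of arrays limits the precision.

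From the ratios, log2 was taken with no pseudocount. Probes were named by the platform annotation (20932 with 1 symbol, 0 with several, 20158 unnamed here), and 17424 were matched by accession to RefSeq's GRCr8 gene names, which updated 2316 symbols. The probe with the largest interquartile range stood for a gene, which concerned 3880 of 15975 genes.

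A cell-means model of the 14 groups of day and defect size, taken from the sample titles, was fitted in R 4.3.3 by limma's lmFit and eBayes (version 3.58.1, prior df 1.9). Adjusted p-values are Benjamini-Hochberg values of two-sided moderated tests over all genes of a comparison, with a threshold of 0.05. A second fit took log2 of each gene minus log2 of Col1a1 on the same array, over 15974 genes. Days were compared with day 1 with both sizes weighted equally. The code was tested on simulated data.

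The 10 members, the other gene lists and the tests were chosen with earlier results of these data known. Members and Col1a1 were named throughout. Of other lists at most the 4 largest increases and the 4 largest decreases were named, and of genes like Col1a1 or like the members' mean the 5 highest correlations. Alternatives were other scalings, filters, probes, weights, the rat number as a block and leaving out arrays. The late against early comparison, for levels and for ratios to Col1a1, and the other Col1a1 probes as denominators (also for each day against day 1) were added after seeing the data.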

Additional observations from a re-analysis of the deposited data

Results flagged for a closer look

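A group of 4 to 10 arrays was looked at more closely where its lowest or highest array lay apart, by the gap to the next array over the range of the group (Dixon's 95% limit). Of 110 combinations of gene and group 26 met this, while chance alone would give about 1 in 20. Many of them share an array, so they are not independent.

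Replicate 17 of 4 mm day 14 lay apart as the lowest array for 7 members and for Col1a1. Its log2 values were -2.459 for Plod1, -2.318 for P4hb, -2.617 for Crtap and -2.388 for Serpinh1. For Fkbp10 it stood at -4.393, for Fkbp11 at -1.545, for Pcolce at -1.595 and for Col1a1 at -0.669. Its brain score was 3.22. In the same group replicate 18 was the highest for Plod2 at -0.67, where the next array stood at -4.923.

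Replicate 11 of 8 mm day 10, an array of low level, was the lowest for Plod2 (-4.406), P4hb (-4.633) and Fkbp10 (-6.644, the floor). Replicate 11 of 8 mm day 1, also of low level, was the lowest for Plod1 (-2.647), Fkbp11 (-2.235) and Pcolce (-3.954). In 4 mm defects at day 10, replicate 10, of low level too, stood at -3.971 for Plod1, and the next array at -0.216.

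At day 21, replicate 13 of 8 mm defects was the highest for Plod1 (-0.246), Serpinh1 (-0.015) and Fkbp11 (-0.686), and replicate 11 was the lowest for Col1a1 (0.703). Replicate 15 of 4 mm defects, with a brain score of 4.26, was the lowest for Plod1 (-1.923), Serpinh1 (-2.37) and Fkbp11 (-2.567).

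The other 3 were P4hb on replicate 13 of 8 mm day 7 (-0.142, next -0.951), Crtap on replicate 15 of 8 mm day 14 (-0.982) and Plod1 on replicate 21 of 4 mm day 3 (-0.5).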

How the results depend on the processing

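Of 106 called results for members and Col1a1, 1043 repeats under other settings kept 1004 calls, lost 39 and reversed 0. Leaving out each of 27 arrays of the small groups in turn kept 2818 of 2862 calls, lost 44 and reversed 0. Counts of members called moved by over 1.5 times as follows. When the less variable genes were left out only 3 members were tested, and 1, 2, 1, 0, 0 and 0 of them were called at days 3, 5, 7, 10, 14 and 21 against day 1, 2 and 3 by the F test over days in 8 and 4 mm defects, and 3 late against early in each size. With only the groups compared in the fit, the counts at days 3, 10 and 21 were 5, 2 and 1. With only genes above the floor on all arrays day 10 gave 2. Day 14 gave 4 after quantile normalization, with values under 0.25 raised and without arrays of high brain score, and 6 with array weights. Day 21 gave 5 with weights. For size, array weights gave 6 at day 7, 1 over all days and 1 for the interaction, and leaving out arrays of low level gave 3 at day 7 and 1 for the interaction. At day 14 the 1 call was 0 after quantile normalization, with raised values, with genes above the floor, without the less variable genes, with the mean of probes, in the groups alone and with the replicate block, which changed no other count by that much. Leaving out 1 array gave 4 to 10 members at day 3, 2 to 4 at day 14 (4 without replicate 17 of 4 mm day 14) and 0 to 1 for size at day 14. Rat numbers gave no sign of pairing in the typical pair. Deviations of 34 same-numbered pairs had a median correlation of 0.00557 (from -0.102 to 0.332), and 316 other pairs one of -0.00252. These correlations cannot settle whether same-numbered arrays came from the same animal. Relative to day 1, the ratio of members to Col1a1 turned to higher at days 3, 5 and 7 with the second Col1a1 probe.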
